A study of Mus musculus with 28 samples.

Results

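Medulloblastomas of mice that had lost p53 were compared by the state of Rictor. The comparison set 5 arrays of Rictor-null tumours (hGFAP-Cre::p53-/-; Rictor-/-) against 2 arrays of tumours that kept 1 Rictor allele (hGFAP-Cre::p53-/-; Rictor+/-, called Rictor-het). They were chosen by tissue and genotype label alone, and these 7 are the medulloblastomas with those genotypes among the 28 arrays analysed here. Both groups carried the hGFAP-Cre transgene and lacked p53, so Rictor is the labelled difference between them. A further 3 medulloblastomas with hGFAP-Cre and p53 loss and no Rictor allele in the label (p53-only) were used as a reference level and to estimate the spread between arrays. The remaining 18 arrays were gliomas and normal brains, of which the 10 Rictor-null and Rictor-het normal brains serve as a comparison at the end. Gene expression was measured on the Affymetrix Mouse 430 2.0 array, and the labels put the tumour content of the pieces at 70% or more. The arrays are named by the codes in their titles, C1, C2, C4, C5 and C6 for Rictor-null, B4 and B6 for Rictor-het and A3, A5 and A6 for p53-only, and series of values follow that order. The labels give neither the age of the mice nor whether each array came from a separate animal. The p-values therefore measure only the spread between these arrays, which may be technical.

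Rictor is the subunit that defines mTOR complex 2 (mTORC2), a kinase complex that phosphorylates AKT, SGK and conventional PKC kinases and through AKT restrains the FOXO transcription factors. mTOR complex 1, which is built around Raptor (Rptor), shares the kinase and drives translation instead. The hGFAP promoter is active in neural progenitors, among them those that give rise to cerebellar granule neurons, and later in astrocytes. Medulloblastoma of the Sonic hedgehog (SHH) class arises from granule neuron precursors, which divide under SHH through Smo and the Gli factors, express Atoh1 and depend on Mycn and the D-type cyclins. The labels do not say whether p53 was lost in Cre-expressing cells alone or in every cell. In RNA of bulk tissue, fewer cells of a type and less RNA per cell cannot be told apart.

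The 7 arrays had median intensities of 20.8 to 27.8 and nearly the same trimmed mean (99.98 to 100.3), and log2 levels correlated at 0.874 to 0.949 within Rictor-null, 0.925 between B4 and B6 and 0.883 to 0.946 across the groups. The ratio of 3' to 5' probe sets, which rises as RNA degrades, lay between 1.07 and 1.63 for Gapdh and between 2.02 and 4.38 for actin, with the highest actin value in B4. Both Rictor-het arrays carry the title prefix YZ2, as do C2 and C6, whereas C1, C4 and C5 carry YZ, so prefix and genotype overlap in part. Markers of the granule lineage were read as a check of the tissue label. Zic1, a transcription factor of the cerebellar granule lineage, was at 3304.6 to 5218.9 in Rictor-null and at 4713.5 and 3698.7 in Rictor-het arrays. Neurod1, which drives granule neuron differentiation, was at 2717.3 to 4736.5 and at 2899.4 and 2904.9. Atoh1 was at 1110.8, 1334.5, 717.4, 1111.8 and 37.5 in Rictor-null and 1678.9 and 933.3 in Rictor-het arrays. C6 alone among the 7 lacked a high level of this precursor factor. Single normal brains reached 4594.5 for Zic1 and 3830.9 for Neurod1, so these genes alone do not set the tumours apart from normal brain. Atoh1 reached 176.2 in normal brain, a level that C6 alone among the 7 did not exceed.

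Rictor itself was examined first, through 5 probe sets. On the brightest, intensity was 68.8, 158.7, 190.4, 202.1 and 235.8 in the Rictor-null arrays, 260.8 and 276.8 in the Rictor-het arrays and 257.9, 222.7 and 273.3 in the p53-only arrays. Every Rictor-null array lay below both Rictor-het arrays, C1 was the lowest, and C6 lay above the p53-only array A5. The means were 171 ± 63.5 (SD, n = 5) and 269 ± 11.3 (SD, n = 2), a log2 difference of -0.74 (SE 0.40, limma adjusted p = 0.9999). An exact permutation test, two-sided by doubling the one-sided value, gave p = 0.0952, which is the smallest value that 5 against 2 arrays allow. The other 4 probe sets were dimmer and lay lower on average in Rictor-null arrays, with log2 differences of -0.77, -0.39, -0.49 and -0.17. The groups overlapped on each of these 4. C2 at 71.2 exceeded B4 at 67 on the first, and on each of the others a Rictor-null array exceeded both Rictor-het arrays. Without C1 the difference on the brightest probe set was -0.45. Whether the probe sets lie within the deleted part of Rictor was not analysed here, which limits them as a check of the labels. Genes beside Rictor also lay lower in Rictor-null arrays, a further limit, and are given under the other observations.

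**Figure D1:**
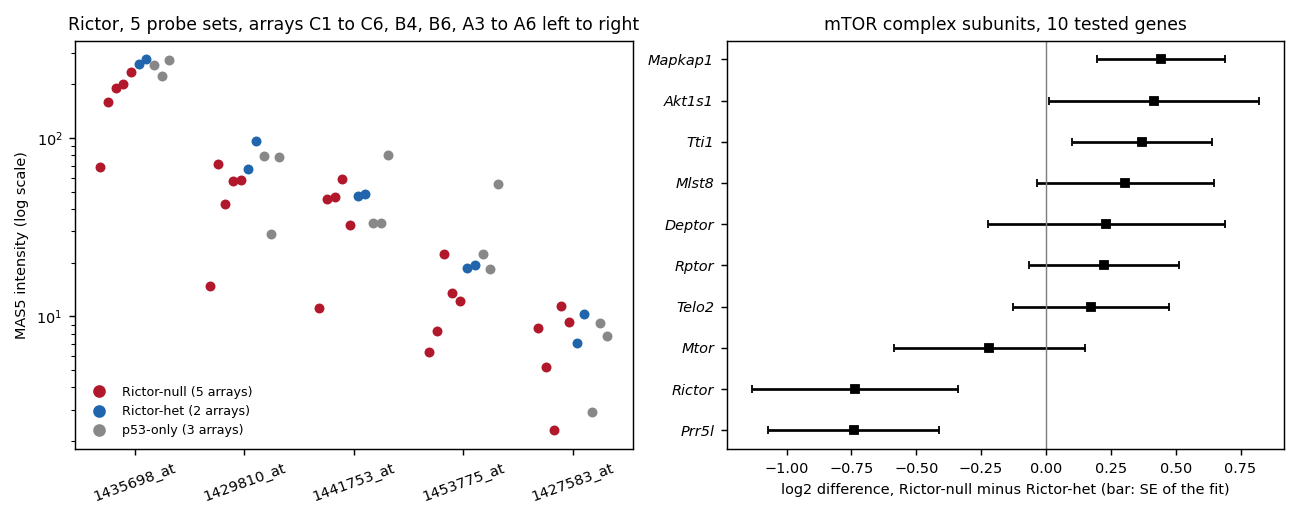
Left, intensity of the 5 Rictor probe sets (log axis) in the 5 Rictor-null, 2 Rictor-het and 3 p53-only medulloblastoma arrays, 1 point per array; right, log2 difference of Rictor-null minus Rictor-het for the 10 tested mTOR complex genes, with bars for the standard error of the limma fit. The Rictor-null points of the brightest probe set lie between 68.8 and 235.8, below the Rictor-het points at 260.8 and 276.8, and Rictor, Prr5l and Mtor are the 3 genes to the left of 0.

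Among 13931 genes tested with limma, 1 passed an adjusted p of 0.05, which is 0.00718% of them. It was Cxcl13, which was lower in Rictor-null tumours, and no gene was called higher. At an unadjusted p under 0.05 there were 199 genes, 70 higher and 129 lower in Rictor-null arrays. They are 1.43% of the tested genes, fewer than a threshold of 0.05 would pass if no gene differed. The median difference over all genes was 0.01, and the median standard error of a difference was 0.37 on the log2 scale, so that with 2 Rictor-het arrays only large differences could pass. Groups that did not overlap are a description that needs no test. All 5 Rictor-null arrays lay above both Rictor-het arrays for 366 genes (2.63%) and below both for 350 genes (2.51%). If the 7 arrays were interchangeable, a share of 0.0952 of genes would separate in either direction. The 2 counts together stay below that share, so lack of overlap alone does not mark a gene as different. Of these, 27 above and 51 below also differed by more than 1 on the log2 scale. Among the 51, both Rictor-het arrays also lay above all 3 p53-only arrays in 21, and B4 was the higher of the pair in 35. Among the 27, both Rictor-het arrays also lay below all 3 p53-only arrays in 7, and in 10 a single Rictor-null array exceeded the next by more than 2-fold.

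**Figure D2:**
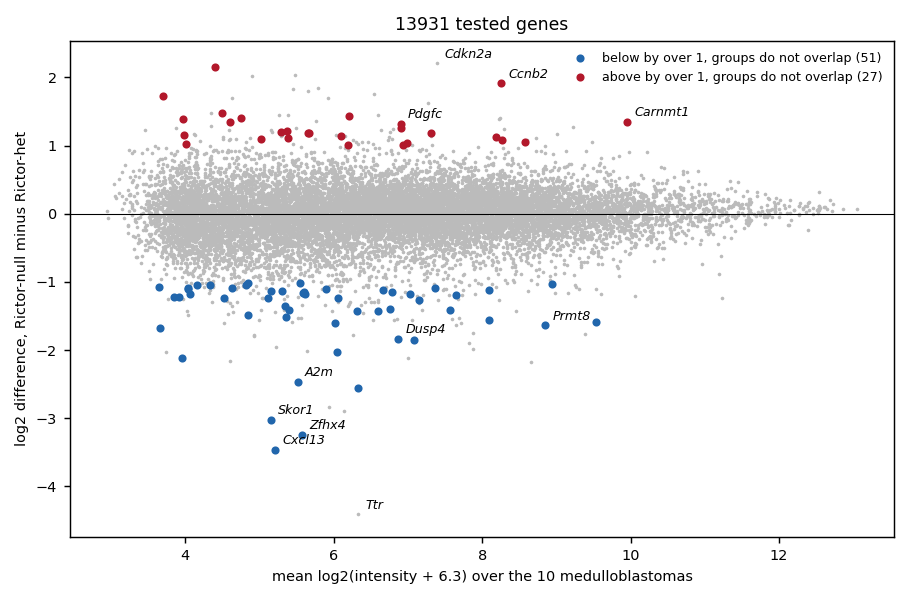
Log2 difference of Rictor-null minus Rictor-het (y axis) against the mean log2(intensity + 6.3) over the 10 medulloblastomas (x axis), 1 point per tested gene. Blue and red points are the 51 and 27 genes whose groups do not overlap and differ by more than 1, and Cxcl13 at -3.46 is the 1 gene that passed the limma test.

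Cxcl13 encodes a chemokine that attracts B cells and follicular helper T cells through the receptor CXCR5. Its intensity was 29.3, 17.9, 28.4, 11.6 and 35.4 in Rictor-null arrays, 411 and 245.7 in Rictor-het arrays and 8.4, 7.1 and 4.0 in p53-only arrays. The Rictor-het arrays stood above every other medulloblastoma, and the p53-only arrays lay below the Rictor-null ones. The means were 24.5 ± 9.58 (SD, n = 5), 328 ± 117 (SD, n = 2) and 6.50 ± 2.26 (SD, n = 3), and the log2 difference of Rictor-null minus Rictor-het was -3.46 (SE 0.39, limma adjusted p = 0.0219). The other Cxcl13 probe set gave 33.2, 16.9, 22.5, 29.8 and 31.6 in Rictor-null arrays against 335.4 and 205.8 in Rictor-het arrays, a difference of -3.05. The call was lost when B4 was left out (limma adjusted p = 0.238), when B6 was left out (0.182), or with the title prefix as a term in the fit (0.268), while the difference stayed between -3.95 and -2.87 in every alternative run. The nearest genes to Cxcl13 along the chromosome differed far less, by -0.36 for Ccng2, -0.23 for Cnot6l and -0.03 for Mrpl1. Farther out, Shroom3 (-0.89) and Anxa3 (-0.88) also had all Rictor-null arrays below both Rictor-het arrays, by smaller amounts than Cxcl13.

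Promoter windows are shown for Cxcl13, the gene that passed the test, and for Ccnb2. Among the named genes whose groups did not overlap, Ccnb2 had the largest difference above 0. The sequence next to each start can thus be read beside the values. Each runs from 250 bases before to 50 bases after the start listed by RefSeq, in build GRCm38.p6 and 5′ to 3′ on the gene's strand. The Cxcl13 window is chr5:95956689-95956988 on the plus strand and the Ccnb2 window is chr9:70421505-70421804 on the minus strand. Capitals mark the matches to 3 motifs searched on both strands: TATAAA, the core element bound by the general transcription machinery; CCAAT, the box bound by NF-Y; and TTTGAA, the core of an element found at many cell cycle genes.
Cxcl13: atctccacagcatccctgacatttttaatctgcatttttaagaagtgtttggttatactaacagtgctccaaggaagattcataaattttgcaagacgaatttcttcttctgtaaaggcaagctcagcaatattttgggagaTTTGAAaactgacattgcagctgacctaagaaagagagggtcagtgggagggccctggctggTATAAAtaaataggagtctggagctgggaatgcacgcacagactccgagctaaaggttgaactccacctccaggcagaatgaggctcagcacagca
Ccnb2: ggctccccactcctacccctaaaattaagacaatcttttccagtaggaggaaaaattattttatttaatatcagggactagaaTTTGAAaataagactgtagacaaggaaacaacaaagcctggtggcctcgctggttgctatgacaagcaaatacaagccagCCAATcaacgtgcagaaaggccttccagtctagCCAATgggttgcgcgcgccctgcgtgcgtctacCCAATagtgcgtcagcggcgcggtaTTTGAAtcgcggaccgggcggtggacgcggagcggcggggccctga
The Cxcl13 window held TATAAA at base 205 and TTTGAA at base 143, and no CCAAT. The Ccnb2 window held CCAAT at bases 164, 197 and 230 and TTTGAA at bases 84 and 255, and no TATAAA. Bases are counted from 1 at the 5′ end of the window. Of all 32851 windows of this length, 13.6% held TATAAA, 37.4% held CCAAT and 17.9% held TTTGAA. These are matches of letters and not sites of binding.

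Skor1 and Zfhx4 were, like Cxcl13, highest in B4 and next highest in B6 among the 10 medulloblastomas, with wider spread. Skor1, a transcriptional corepressor of the SKI family, was at 9.9, 25.5, 14.9, 23.6 and 45.1 in Rictor-null arrays, 390.4 and 123.1 in Rictor-het arrays and 7.1, 7.3 and 14.2 in p53-only arrays. Both Rictor-het arrays stood above the other 8, and the log2 difference was -3.02 (SE 0.51, limma adjusted p = 0.521, the next smallest after Cxcl13). Zfhx4, a zinc finger homeobox factor, was at 68.5, 13.1, 12.5, 22.8 and 41.7, at 457.2 and 201, and at 2.2, 105.8 and 10.1. The p53-only array A5 lay above every Rictor-null array for Zfhx4, and the difference was -3.24 (SE 0.86), with -2.98 on its other probe set. Neither passed the test, and the chromosomal neighbours Map2k5 (0.11) and Pex2 (0.19) showed no such difference.

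The next largest differences below 0 came from genes of several functions, and none passed the test (limma adjusted p = 0.9999 for each). Dusp4, a nuclear phosphatase that switches off ERK, was at 47.1, 87, 45.6, 62.5 and 112.4 in Rictor-null and 227.3 and 286.3 in Rictor-het arrays. The groups did not overlap (difference -1.84, SE 0.43). The p53-only arrays, at 79.3, 222.4 and 160.2, reached from within the Rictor-null range to just below the Rictor-het arrays. Prmt8, a brain arginine methyltransferase, was at 492.8, 189.1, 428.1, 281.1 and 213.3 against 783.1 and 1129.6 (-1.63, SE 0.49), and the p53-only array A5 was as high, at 1144.7. Igfbp2, which binds insulin-like growth factors, was at 228.3, 56.6, 124.4, 220.7 and 253 against 513.7 and 437.7 (-1.56, SE 0.49). All 3 p53-only arrays lay above the Rictor-null ones for Igfbp2, at 586.3, 363.2 and 375.9. Lrba, a vesicle trafficking protein, was at 924.9, 291.8, 269.8, 758.3 and 297 against 1317.6 and 1360.7 (-1.59, SE 0.60), with C1 and C5 well above the other 3 Rictor-null arrays. A2m, a secreted protease inhibitor, was at 13.6, 2, 23.3, 43.2 and 130.5 against 156.1 and 183.8 (-2.46, SE 0.83), with C6 close to the Rictor-het arrays. Mab21l2, a developmental regulator, had a difference of -2.03 (SE 1.03), and p53-only arrays A3 and A5 were higher than either group, at 336.1 and 246. The remaining 3 of the 12 genes named below 0 were immune genes: Ifi27l2a (-1.85), Ccl12 (-1.61) and Ifi202b (-1.49). Ifi202b, an interferon-inducible gene of the p200 family, was at 10.2 to 62.7 in Rictor-null arrays and 116 and 96.8 in Rictor-het arrays, but at 0.6, 0.3 and 0.3 in the p53-only arrays, so both Rictor genotypes stood above those without a labelled Rictor allele.

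**Figure D3:**
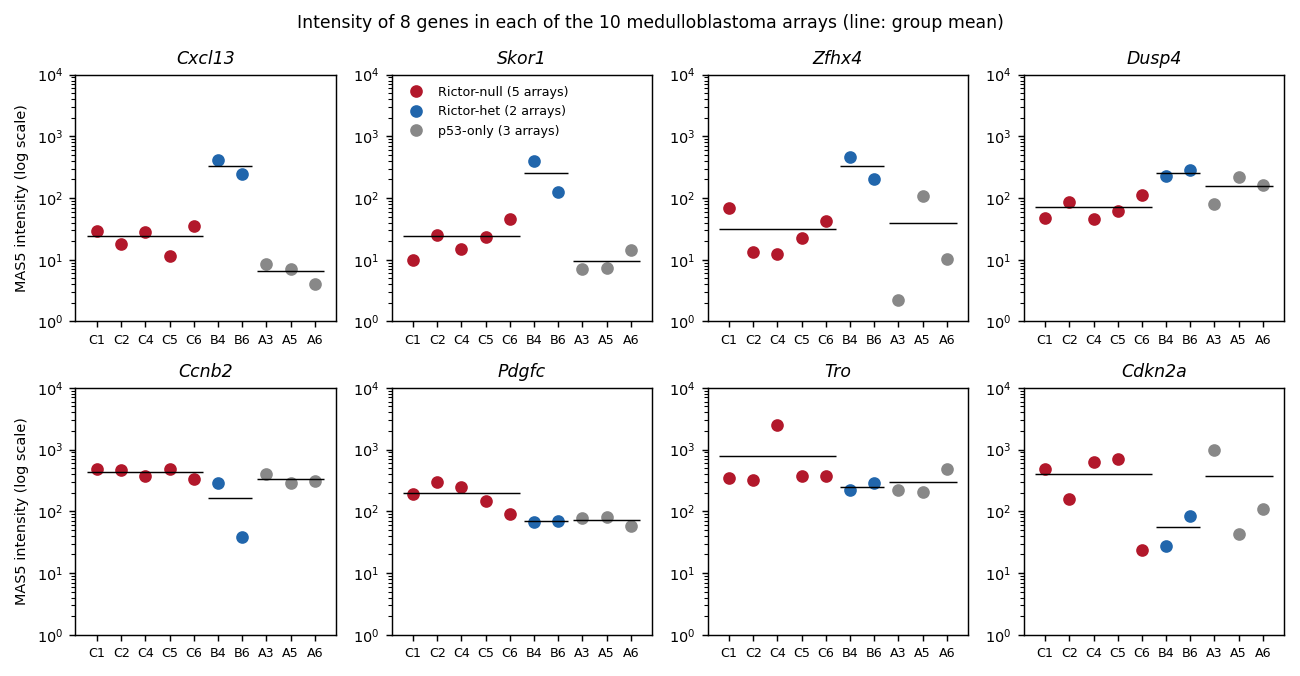
MAS5 intensity (log axis) of 8 genes in each of the 10 medulloblastoma arrays, 1 point per array, with a line at each group's mean. Cxcl13, Skor1 and Zfhx4 are highest in B4 and B6, the low mean of Ccnb2 in the Rictor-het group comes with B6 at 37.7, and the high mean of Tro in the Rictor-null group comes with C4 at 2510.8.

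The largest differences above 0 whose groups did not overlap were smaller, and none passed the test. Ccnb2, cyclin B2 of mitosis, was at 491.1, 459.6, 368.4, 481.4 and 335.5 in Rictor-null and 286.4 and 37.7 in Rictor-het arrays. The low level was in B6, while B4 matched the p53-only arrays at 399.9, 284.9 and 306.7, and the difference was 1.92 (SE 0.54, limma adjusted p = 0.9999). Without B4 the Rictor-het group consisted of B6, and Ccnb2 then passed (3.28, limma adjusted p = 0.0325). Pdgfc, a ligand of the PDGF receptor alpha, was at 192.4, 301.1, 248.8, 148.4 and 89.2 against 66.5 and 70.9 (1.32, SE 0.41). The p53-only arrays were as low as the Rictor-het ones for Pdgfc, at 78.5, 80.7 and 56.8, and its other probe set gave the same difference of 1.32. Pdgfra, its receptor, was at 374.4 to 2018.8 in Rictor-null arrays and at 1018.9 and 878 in Rictor-het arrays, so these overlapped (0.19, SE 0.50). Carnmt1, which methylates carnosine, was at 2194.9, 969.7, 3387.7, 1162.6 and 930.8 against 840.3 and 409.8 (1.35, SE 0.58), with 1284.4 in the p53-only array A5. Col9a3, a chain of collagen IX, was at 587.5, 198.1, 794.9, 386.6 and 240.3 against 183.3 and 174 (1.09, SE 0.46). Pcdhb12, a clustered protocadherin, was at 123.7, 38.9, 170.6, 38.7 and 150.4 against 34.1 and 36.4 (1.18, SE 0.55), so C2 and C5 barely exceeded the Rictor-het arrays. Tspyl3 (1.18) and Manbal (1.04) were the other genes above 0 in which no single array stood apart. Sbsn (1.26) was highest in C2, at 253.4 against at most 148.1 in the other Rictor-null arrays. It is the last gene of a stretch of neighbouring genes raised in C2. Fancc, Maged2, Tro and LTO1 had differences of 1.18, 1.12, 1.05 and 1.01. In each of them 1 Rictor-null array stood far above the other 4 on the probe set used. These genes are described with the neighbouring genes of those arrays.

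Components of the mTOR complexes other than Rictor lay mostly slightly above 0, and none passed the test. Of the 9 tested besides Rictor, 7 lay above 0 and 2 below, with a median of 0.23 against 0.01 for all genes. The 1 at an unadjusted p under 0.05 in the limma fit was Prr5l, which lay below 0. Mapkap1, which encodes the mTORC2 subunit SIN1, was at 432.2, 297.8, 300.1, 295.6 and 323.8 in Rictor-null and 236.7 and 240.5 in Rictor-het arrays. All Rictor-null arrays lay above both Rictor-het arrays, with a difference of 0.44 (SE 0.25). Tti1, a chaperone of the mTOR kinase, likewise did not overlap (0.37, SE 0.27). The kinase Mtor (-0.22), the shared subunit Mlst8 (0.31), the mTORC1 subunit Rptor (0.22) and the inhibitor Deptor (0.23) overlapped between the groups. Prr5l, a partner of mTORC2, was dim, at 15, 18.5, 14.5, 20.5 and 33.2 against 30.9 and 44 (-0.74, SE 0.33), and Prr5 was below the filter on dim genes.

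Transcripts of the kinases downstream of mTORC2 lay on both sides of the Rictor-het level in about equal numbers. In the list of PI3K, AKT, SGK and PKC genes, 23 were tested, 11 lay above and 12 below 0, the median was -0.02 and none passed the limma test (0 at an unadjusted p under 0.05). Akt1 was at 263.3, 347.7, 429.4, 243.4 and 215.3 in Rictor-null and 277 and 275.8 in Rictor-het arrays, a difference of 0.07 (SE 0.29). Akt2 had a difference of 0.31 (SE 0.35), Sgk1 of -0.48 (SE 0.40), Sgk3 of -0.57 (SE 0.38) and Prkca of 0.32 (SE 0.59). Prkcd, a PKC isoform that needs no calcium, was the 1 gene of the list with all Rictor-null arrays lower, at 80.1, 76, 40.5, 76.5 and 50.3 against 86.3 and 137.6 (-0.74, SE 0.53). Igf1r, the receptor of insulin-like growth factor, was at 4690.5 in C1 and between 331.9 and 476.1 in the other 4 Rictor-null arrays, with 452.3 and 290 in the Rictor-het arrays. These are transcript levels, and phosphorylation of the kinases was not measured.

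FOXO factors and genes known as their targets gave no common direction. Of 22 tested, 13 lay above and 9 below 0 with a median of 0.06, none passed the limma test and 2 were at an unadjusted p under 0.05. Foxo1 differed by 0.10 (SE 0.32), Foxo3 by -0.19 (SE 0.40), and the cyclin-dependent kinase inhibitor Cdkn1b by -0.16 (SE 0.38). Cited2, a transcriptional coregulator, was at 193.7, 698, 264.1, 665.8 and 339.3 against 773.3 and 799.1 (-1.03, SE 0.46), so all 5 Rictor-null arrays were lower but C2 and C5 only slightly. Klf6 also did not overlap, with a difference of -0.36 (SE 0.28). Bcl6, a transcriptional repressor, was at 46, 36.4, 58, 42.3 and 89.2 against 74.4 and 152 (-0.96, SE 0.39). Among 11 genes of translation and mTORC1 output, 6 lay above and 5 below 0 with a median of 0.03. Eif4ebp1, the repressor of cap-dependent translation, ranged from 101.4 in C6 to 680.8 in C5 within Rictor-null tumours alone.

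Actin regulators, a further arm of mTORC2 output, were split evenly. Of 14 tested, 7 lay above and 7 below 0 with a median of 0.01, and none passed the limma test (0 at an unadjusted p under 0.05). The GTPase Rac1 was at 1098, 985.7, 1118.1, 993.3 and 936.6 in Rictor-null and 1163.4 and 951.7 in Rictor-het arrays (-0.04, SE 0.23). Rhoa differed by 0.07 (SE 0.28) and Cdc42 by -0.16 (SE 0.28). Pxn, the focal adhesion protein paxillin, was the 1 gene of the list without overlap, at 277.1, 312.8, 335.9, 319.8 and 310.8 against 412 and 542.3 (-0.60, SE 0.35), and the p53-only arrays lay on both sides, at 634.7, 230.1 and 585.5.

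Genes of the SHH pathway, which drives medulloblastoma of the SHH class, ranged widely among the Rictor-null tumours. The class of the tumours was not determined here. Of 20 tested genes 9 lay above and 11 below 0, the median was -0.08, none passed the limma test and 1 was at an unadjusted p under 0.05. Gli1, a target and effector of the pathway, was at 95.4, 277.7, 148.2, 320.7 and 23.4 in Rictor-null and 183.2 and 107.4 in Rictor-het arrays. C6 was the lowest and C5 the highest, and the Rictor-het pair lay between them (-0.13, SE 0.77). Ptch1, the receptor that restrains Smo, was at 1346.9, 371.7, 1771, 42.3 and 1131.1 against 870.5 and 1707.6, so C5 was low among the 7 and A3, at 34.2, low among the p53-only arrays. Smo overlapped (0.07, SE 0.57), and so did the pathway target Hhip (-0.51, SE 0.73). Sfrp1, a WNT antagonist and SHH target, was at 454.4, 1188.1, 821.7, 682.9 and 419.2 against 1847.9 and 1100.7 (-1.10, SE 0.38). C2 exceeded B6, and the p53-only arrays were at 516.4, 644.8 and 511.6. Gli3, mainly a repressor of the pathway, reached 275.9 in C2 and lay between 6.3 and 70.1 in the other 9 medulloblastomas, and Gas1, a coreceptor of SHH, reached 3770.8 in C2 against at most 1019.2 elsewhere. Among 17 granule precursor genes the median was -0.10, with 6 above and 11 below 0, and it was 0.15 without B4.

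Most cell cycle genes lay slightly below 0. Of 25 mitosis genes 21 lay below and 4 above 0 with a median of -0.17, and none passed the limma test. The 1 at an unadjusted p under 0.05 in the limma fit was Ccnb2, which lay above 0 with a difference of 1.92. Mki67, the proliferation marker Ki-67, was at 786.5, 1810, 1447.5, 2007.3 and 684.2 in Rictor-null and 1412.6 and 1792.5 in Rictor-het arrays, with C1 and C6 the lowest (-0.37, SE 0.50). Top2a, the topoisomerase of dividing cells, differed by -0.10 (SE 0.30). Cenpf, a kinetochore protein, was at 366.2, 523.2, 532.4, 526 and 640.8 against 894.9 and 824.2, without overlap (-0.75, SE 0.35). Ttk also lay lower in all Rictor-null arrays (-0.29), and Ccnb2 was the 1 gene of the list with all of them higher. Among 23 DNA replication genes the median was -0.20, with 17 below 0, and C6 had the lowest mean level of the 7 arrays, at 8.09 against 8.57 to 8.88.

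The D-type cyclins and their inhibitors varied several-fold among tumours of the same genotype. Ccnd1 was at 997.2, 2152.1, 2465.9, 2138.9 and 3960.7 in Rictor-null and 1650.7 and 1675.9 in Rictor-het arrays (0.36, SE 0.48). Ccnd2 was at 1513.9, 4303.8, 3491.5, 3032.6 and 645 against 3688.7 and 6927.6 (-1.24, SE 0.86), so C6 had the highest Ccnd1 and the lowest Ccnd2 of the 7. Cdk6, the kinase partner of D-type cyclins, was at 472.7, 1210.5, 4715.2, 729.9 and 1868.6 against 3461.6 and 1223.6, with C4 and B4 the highest. Mycn, the MYC family member of granule precursors, was at 2637.3, 2019.4, 1632.2, 4134.2 and 1177.9 against 2210.8 and 1345.7 (0.29, SE 0.44). Cdkn2a, which encodes an inhibitor of cyclin-dependent kinases and the p53 activator ARF, was at 492.1, 157.5, 617.4, 713.3 and 23.4 against 27.7 and 83.6. Among the Rictor-null arrays 4 were above both Rictor-het arrays and C6 was below them, and the p53-only arrays also split, at 971.7, 42.6 and 107.2 (2.21, SE 1.27, limma adjusted p = 0.9999). Its neighbour Cdkn2b differed by 0.10 (SE 0.52).

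All 11 tested genes of ERK pathway feedback lay below 0, with a median of -0.46, and none passed the limma test (2 at an unadjusted p under 0.05). The Dusp and Spry genes of the list are switched on by ERK and in turn damp the pathway. In Dusp4 and Spry4 all Rictor-null arrays lay below both Rictor-het arrays, which is 18.2% of the list against 2.51% of all tested genes. Spry4, an inhibitor of receptor tyrosine kinase signalling, was at 37, 31.7, 45.3, 21.8 and 18.8 in Rictor-null and 109.5 and 51 in Rictor-het arrays (-1.18, SE 0.40), with 51.1, 68 and 38.2 in the p53-only arrays. Spry2 was at 213, 228.9, 220.6, 170.1 and 212.5 against 355.5 and 225.9 (-0.44, SE 0.31), so B4 stood apart and B6 did not. Dusp6 (-0.46, SE 0.51), Etv5 (-0.80, SE 0.58) and Spred1 (-0.22, SE 0.29) overlapped. The mean log2 level of the list was 7.13, 7.34, 7.40, 6.96 and 6.95 in Rictor-null, 7.99 and 7.60 in Rictor-het and 7.94, 7.82 and 7.79 in p53-only arrays. Every Rictor-null array was below every other medulloblastoma on this mean, with no test of the list. The median was -0.24 without B4 and -0.82 without B6. Among 21 growth factor and receptor genes the median was -0.24, with Kit at -1.42 (SE 0.56), Fgfr1 at -0.64 (SE 0.32) and Fgfr2 at -0.65 (SE 0.35), the last without overlap.

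Markers of microglia and macrophages had differences mostly below 0, and none passed the test. Of 20 in the list 19 were tested, 18 lay below 0, the median was -0.61 and 6 were at an unadjusted p under 0.05 in the limma fit. In 6 of them, or 31.6% against 2.51% of all tested genes, all Rictor-null arrays lay below both Rictor-het arrays: Cx3cr1, Itgam, C1qa, C1qc, Cd68 and Tmem119. Cx3cr1, the fractalkine receptor of microglia, was at 67, 88.8, 65.5, 58.1 and 110.3 against 142.9 and 128.3 (-0.79, SE 0.31). C1qa, a chain of complement C1q, was at 455, 384.2, 250.3, 211.4 and 447 against 770.9 and 465.6 (-0.83, SE 0.37), so B4 stood far above and B6 only just. Tmem119, a marker of resident microglia, was dim in all, at 17.5 to 39.7 against 40.6 and 52.2 (-0.61, SE 0.34). Fcer1g (-1.12, SE 0.45) and Ptprc, the pan-leukocyte antigen CD45 (-1.22, SE 0.52), had their highest level in B4, at 501.3 and 444.1, and overlapped at B6. The mean log2 level of the list was 6.36 to 7.06 in Rictor-null, 7.50 and 7.03 in Rictor-het and 6.70 to 7.30 in p53-only arrays, so C1 and the p53-only array A3 were as high as B6. No tested marker was at 0 in any of the 7 arrays. The median was -0.36 without B4 and -0.85 without B6.

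Interferon response and MHC class I genes lay lower in 14 of 15 cases, with a median of -0.75, but their spread between Rictor-null tumours was wide and none passed the limma test (0 at an unadjusted p under 0.05). Ifit3 was the 1 gene without overlap, at 117, 126.4, 45.6, 155.5 and 91.4 against 237 and 230.1 (-1.18, SE 0.64). Rsad2, an antiviral enzyme, was at 162.9, 531.2, 84.2, 787.9 and 126.6 against 378.1 and 447.6, with C2 and C5 above both Rictor-het arrays. The mean log2 level of the list was 7.56, 7.97, 6.05, 7.87 and 6.66 in Rictor-null, 8.20 and 7.72 in Rictor-het and 8.24, 6.18 and 6.91 in p53-only arrays. C4 and A5 were thus the lowest of the 10. The median was -0.33 without B4 and -1.13 without B6. B2m, the light chain of MHC class I, was at 2850.4, 2448.7, 1189.7, 1830.5 and 1445.9 against 4406.2 and 2157.8 (-0.73, SE 0.38). Of the lymphocyte markers 3 were bright enough to test, and Ighm, the heavy chain of IgM, was at 626.1 in C1 and 783.2 in B4 and at most 149.1 in the other 8 arrays. Cxcl13 was therefore low in 1 of the 2 arrays with high Ighm and high in the other. Whether cell content has a part in the Cxcl13 difference was not tested.

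**Figure D4:**
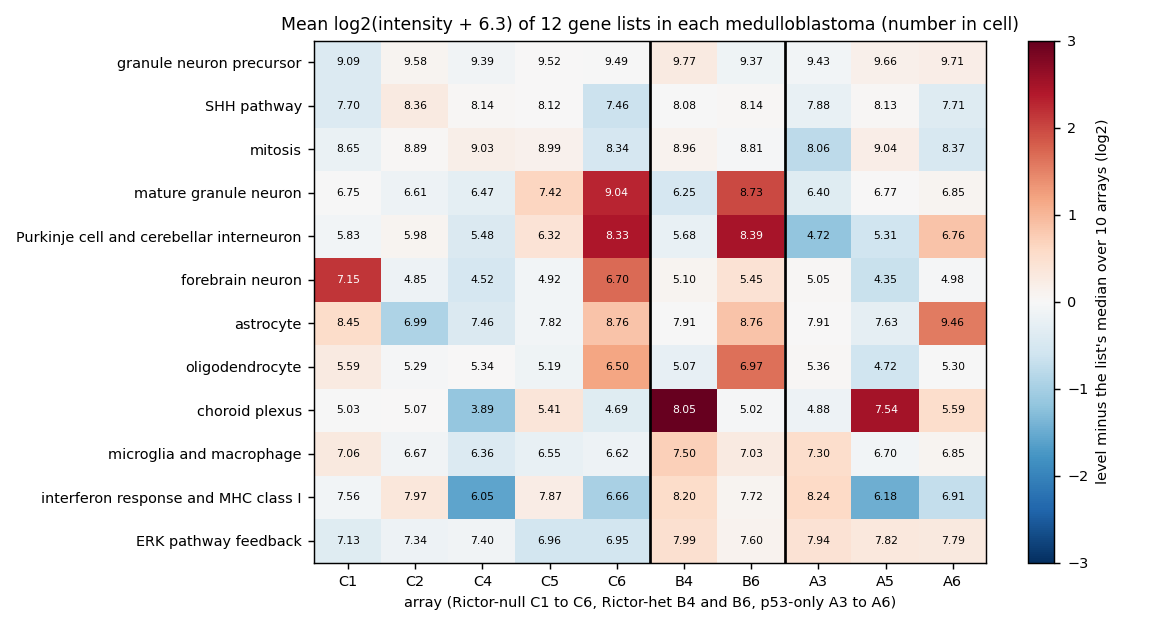
Mean log2(intensity + 6.3) of 12 gene lists (rows) in each of the 10 medulloblastoma arrays (columns), with the value in each cell and colour for the difference from the list's median over the 10. Choroid plexus genes are high in B4 and A5, mature granule and Purkinje genes in C6 and B6, forebrain genes in C1 and C6, and the ERK feedback list is at 6.95 to 7.40 in all 5 Rictor-null arrays against 7.60 to 7.99 elsewhere.

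Markers of other cells moved in single arrays of both genotypes. The 8 choroid plexus genes all lay below 0 (median -1.51), and none was without overlap. Ttr, the transthyretin made by choroid plexus, was at 6, 13.7, 9.9, 5.1 and 105.8 in Rictor-null and 8734.3 and 18.4 in Rictor-het arrays, with 5340.4 in the p53-only array A5. B4 and A5 thus held choroid plexus transcripts, B6 did not, and the list median was -0.26 without B4. Gabra6, a receptor subunit of mature granule neurons, was at 10.5, 89.7, 53.5, 187.2 and 1324.3 against 30.9 and 1637.5. Pcp2, a Purkinje cell gene, was at 869.1 in C6, 848.5 in B6 and at most 109 in the other 8 medulloblastomas. C6 and B6, 1 array of each genotype, therefore carried more mature cerebellar transcripts. Camk2a, a kinase of forebrain neurons, was at 695.7 in C1, 204.2 in C6 and 81.6 in B6 and at most 32.4 elsewhere. Of 14 astrocyte genes 13 lay below 0 (median -0.50), and the median was -0.84 without B4 and -0.34 without B6, where 8 of 14 lay below 0. The mean log2 level of the astrocyte list was 6.99 to 8.76 in Rictor-null arrays, 7.91 in B4 and 8.76 in B6. Gfap, the astrocyte filament protein, was at 48, 17, 11.7, 55.1 and 113 against 52.5 and 119.8 (-0.97, SE 0.64). The neural stem cell list had a median of -0.15, and within it Id1, an inhibitor of basic helix-loop-helix factors, was at 106.8, 161.7, 84, 145 and 77.9 against 311.5 and 188.8 without overlap (-1.09, SE 0.36). Sox2, a stem cell factor, was at 604.8 in B4 and 290.5 in B6, with C2 at 310 between them (-0.79, SE 0.31). The part of cell content in these differences was not tested.

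Several large values of single arrays were shared by runs of neighbouring genes. Gene order was taken from RefSeq, levels were set against the median of the 10 medulloblastomas, and windows of 11 neighbouring tested genes with a median deviation of 1 or more on the log2 scale were kept. There were 27 raised runs in the 7 arrays, 3 in C1, 4 in C2, 4 in C4, 1 in C5, 8 in C6, 5 in B4 and 2 in B6, and 3 lowered runs, 2 in C4 and 1 in C6. They were sought after the values of single genes had been seen, and DNA copy number was not analysed here. Some runs hold clusters of related genes, among them Ms4a genes and MHC class II genes in B4 and Scn and Pcdhb genes in C6. The counts of runs therefore mix different kinds. The strongest was in C4, where the window from Il13ra2 to Phf8 had a median deviation of 2.88. Tro and Maged2, both of the MAGE family, belong to it with 2510.8 and 2194.6 in C4 and at most 377.5 and 336.5 in the other Rictor-null arrays. So does Gnl3l, a nucleolar GTPase, at 3230.3 against at most 370.1 in the other 9 medulloblastomas.

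In C6 the run from Cttn to Smim38 had a median deviation of 1.85 and held Ccnd1, LTO1, Fadd and the fibroblast growth factor genes Fgf3 and Fgf15. LTO1, a ribosome biogenesis factor, was at 993.1 in C6 and 102.8 to 132.7 in the other Rictor-null arrays, with 69.9 and 102 in Rictor-het arrays. Ppfia1, a liprin of the same run, was at 1297.4 against at most 161.8. Ccnd1 is the D-type cyclin that was highest in C6, with 3960.7 against at most 2465.9 in the other 9. A longer run in C6, with a median of 2.76 in its best window, Pwwp2b to Fuom, had 41 of 64 spanned genes raised by more than 1.

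Mycn lay in a raised run of C5, with a median deviation of 2.07 in the window from Ttc32 to Lratd1. Ddx1, the RNA helicase next to Mycn, was at 5708.7 in C5 against at most 1881.1 in the other 9 medulloblastomas, and Nbas was at 824.1 against at most 178.3. Mycn itself, at 4134.2 against at most 3111.2, stood out less than its neighbours. C5 also had the lowest Ptch1 of the 7 arrays, at 42.3, next to the highest Fancc, a Fanconi anaemia gene, at 522.7 against at most 65.2. On the other Fancc probe sets C5 was the highest by less, at 228.9 against 114.5 in C2 and at 43.9 against 28.4 in C1. Fancc and Ptch1 are direct neighbours in the gene order, and Ercc6l2 on the other side of Ptch1 was unremarkable in C5 at 157.2. In the p53-only array A3, where Ptch1 was at 34.2, Ercc6l2 was at 20 against at least 131.7 in the other 9 and Fancc was at 46.2.

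In C1 the run around Igf1r had a median of 1.20, with Igf1r at 4690.5, its neighbour Pgpep1l at 319 against at most 19.5 in the other 9, and Arrdc4 at 388.5 against at most 91.9. Another run in C1 held the complex I subunits Ndufs8, at 3962.7 against at most 1578.4, and Ndufv1, at 3305.7 against at most 1106.8. In C2 the genes Gas1 and Dapk1 shared a run with a median of 1.58, and Gli3 lay in a run with 1.57. The run of B6 from Kcna5 to Parp11 had a median of 2.70 and held Ccnd2 at 6927.6, Tigar at 918.9 against at most 123.7, and Rad51ap1 at 4068 against at most 940.7. Prmt8, whose Rictor-het arrays were both high, is the gene next to Parp11, just outside this window. In B4 the window from Tmem185b to Insig2 had a median of 1.55 and held En1, and Gli2, just outside it, was at 1600 against at most 1290.4 in the other 9.

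The stretch that begins with Cdk6 was raised in 3 of the 7 arrays, in both genotypes. Its median deviation in the best window was 2.09 in C4, 1.58 in C6 and 1.55 in B4. Krit1, a gene of vascular integrity in this stretch, was at 649 in C4, 538.6 in C6 and 567.5 in B4. Ankib1 beside it was at 1717.2, 1035.8 and 1008.1 in the same arrays. A difference in the number of runs between the genotypes was not tested.

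**Figure D5:**
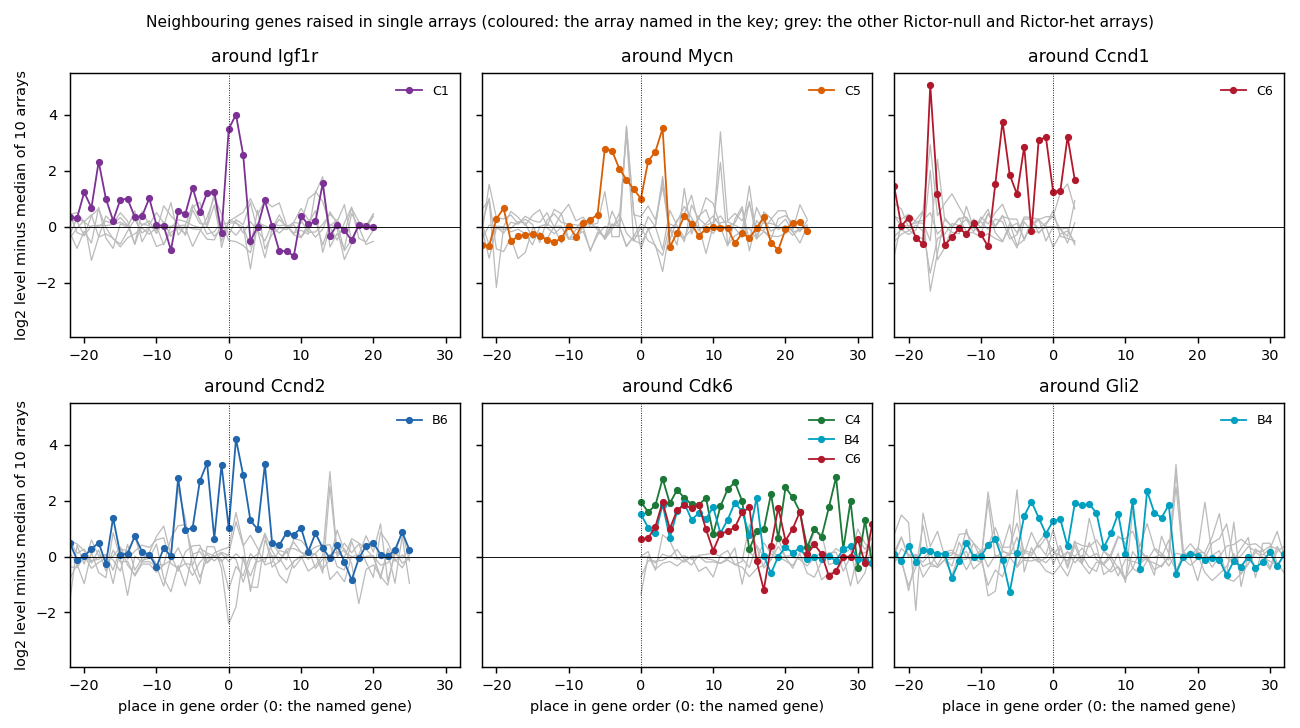
Log2 level minus the median of the 10 medulloblastomas (y axis) for tested genes in chromosomal order (x axis, place relative to the named gene at 0), with the array or arrays that carry the run in colour and the other Rictor-null and Rictor-het arrays in grey. Neighbours of Igf1r are raised in C1, of Mycn in C5, of Ccnd1 in C6, of Ccnd2 in B6 and of Gli2 in B4, and the stretch from Cdk6 onward is raised in C4, B4 and C6.

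The same contrast in normal brain, 5 Rictor-null against 5 Rictor-het arrays, gave no call by limma (439 genes at an unadjusted p under 0.05). The difference between the contrasts in tumour and in normal brain was tested directly, and 0 of 13931 genes (0%) passed, with 264 at an unadjusted p under 0.05. Both unadjusted counts, 439 and 264, are fewer than that threshold would pass if no gene differed. Cxcl13 ranged from 1.8 to 113.1 over the 12 normal brains, and its normal brain difference was -1.55, so the tumour difference exceeded it by -1.91 (SE 1.19, limma adjusted p = 0.9999). Skor1 ranged from 5.2 to 347.9 in normal brain, with a difference of 0.56. Rictor on its brightest probe set differed by -0.05 in normal brain. The microglia list had a median of -0.41 there and the interferon list -0.66, both on the side seen in the tumours, whereas the choroid plexus list had 0.47. The ERK feedback list had -0.26. Without B4, 4 genes passed the test of the difference between tissues, D6Wsu163e, Tigar, Borcs5 and Lrp6, of which D6Wsu163e and Tigar lie in the raised run of B6.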

How the data were processed

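RNA of medulloblastomas, gliomas and normal brains was hybridised to the Affymetrix Mouse 430 2.0 array. The deposited table holds linear intensities that the authors computed per probe set, with MAS5 and GCOS named in the submitters' processing notes; versions: not given in the sources used here. The near-equal trimmed means (2% trimmed from each end) show that the arrays had been scaled to a common level. The table has 45101 probe sets, of which 64 are controls; 34945 had 1 gene symbol in the platform annotation, 932 several and 9224 none listed, and genes were named from the first kind alone.

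The values were taken as log2(intensity + 6.3), where 6.3 is the 25th percentile of the deposited intensities, so that differences of dim genes are understated. The probe set of highest mean stood for each of 18193 genes, and the 13931 with a mean above the 30th percentile of probe sets (3.88 in log2 units) entered the tests. limma 3.58.1 in R 4.3.3 (lmFit, eBayes with trend, two-sided, Benjamini-Hochberg over all tested genes) was fitted over the 10 medulloblastomas in 3 groups, and the difference between tissues over all 28 arrays. The limma steps were tested on simulated data. Promoter windows and gene order came from RefSeq tables, and figures were drawn with Python 3.11.15 and matplotlib 3.10.9. The number of arrays, 5 against 2, limits the precision.

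The members and the 35 gene lists were chosen with earlier results of these data known, and no list was tested. Genes named are those called, filled up to 12 in each direction with the largest differences among genes whose groups did not overlap and whose higher group averaged an intensity of 100 or more, with clone and predicted names skipped. To these were added called members of each list, or its 2 brightest where fewer than 2 were called, and a set of mTOR, AKT, SHH, cell cycle and marker genes. Other genes, such as those of the neighbouring runs, single members without overlap and immune genes, were named after their values were seen. Alternatives were other pseudocounts, quantile normalization, other filters, every probe set, other arrays in the fit, no trend, the title prefix, the title number as a block and leaving out arrays. Some genes are not reported here, and gliomas entered through the 28-array fits alone.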

Additional observations from a re-analysis of the deposited data

Results flagged for a closer look

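Among 187 levels of named genes and lists, 27 had 1 of the 5 Rictor-null arrays far from the other 4 by Dixon's criterion on the log2 scale. Chance alone finds such an array in about 1 in 20 groups. Genes of the neighbouring runs were among those checked, and they were named after 1 array had been seen to stand out. The 27 therefore cannot be read against that share.

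In C6 these were the low Atoh1 (37.5, next 717.4), which marks granule precursors, and the high Neurod1 (4736.5, next 3040), which marks their differentiating progeny. C6 also stood out for the genes of its raised runs, LTO1 (993.1, next 132.7), Fgf3 (104.8, next 13.1), Fgf15 (69, next 4.2) and Fuom (504.2, next 88.4). The other C6 values were the low cyclin-dependent kinase inhibitor Cdkn2b (29, next 92.7), the low Ttc32 (58.3, next 112.5), and the high Insig2 (479.9, next 203.3), Kit (126.7, next 42.9) and Ttr (105.8, next 13.7). The Rictor-het arrays had Kit at 96.2 and 177.8.

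In C4 the high values were those of 1 neighbourhood, Tro (2510.8, next 377.5), Maged2 (2194.6, next 336.5), Gnl3l (3230.3, next 370.1) and Phf8 (1655.6, next 281.7). In C1 they were Igf1r (4690.5, next 476.1) with its neighbours Pgpep1l (319, next 19.5) and Arrdc4 (388.5, next 89.3), and apart from these Mapkap1 (432.2, next 323.8) and Borcs5 (206.5, next 161.9). In C5 they were Fancc (522.7, next 65.2) and Nbas (824.1, next 147), and the low Spry2 (170.1, next 212.5). In C2 they were the death-associated kinase Dapk1 (802.4, next 172.6) and Mrpl1 (177.1, next 127.5), and the low Sgk3 (21.4, next 44.8). The mean log2 level of the FOXO list was 7.99 in C2 against at most 7.71 in the other Rictor-null arrays.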

How the results depend on the processing

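The Cxcl13 call was sensitive to the fit. The count of genes called was 0 with a pseudocount of 1 (Cxcl13 limma adjusted p = 0.102), with only the 7 Rictor-null and Rictor-het arrays (0.166), with group means over 28 arrays (0.9998), with the title prefix as a term (0.268), with YZ2 arrays only (0.99995) and without B6 and C6 (0.0898). Leaving out 1 array gave 0 to 1: Cxcl13 was lost without C1 (0.0651), C2 (0.0858), C4 (0.0593), B4 or B6, and kept without C5 or C6. The other alternatives, apart from the replicate block, kept it. Where 1 Rictor-het array was left, its spread was taken from the other groups. Of 498 values for Rictor and the 24 largest differences under the alternatives, 485 kept direction and call, 12 lost the call (all of Cxcl13), 1 gained it (Ccnb2) and 0 turned direction. Of 2058 values for the other 103 named genes, 175 turned direction, none of them a called gene.

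Rictor's difference ranged from -0.87 to -0.32. The median of the ERK feedback list ranged from -0.82 to -0.24 over the left-out arrays, and the genes called for the difference between tissues from 0 to 4. The microglia, interferon and choroid plexus medians stayed below 0 in all 20 alternatives. Only 2 title numbers recur in both genotypes, and the labels do not say what the number marks. The deviations of B4 and C4 correlated at 0.24 and those of B6 and C6 at 0.35. With the number as a replicate block 1 gene was called (Igha), Cxcl13 had a limma adjusted p of 0.406, and Rictor differed by -0.32. No gene was called for the difference between tissues with the code as a random block.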

Other observations

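Other immune genes also had differences below 0, none of which passed the test, and they were picked after their values were seen. Ly86, a partner of a Toll-like receptor on myeloid cells, was at 150.4, 152.1, 87.9, 135.1 and 97.8 in Rictor-null and 299 and 300.7 in Rictor-het arrays, with 90.9, 124.9 and 73 in p53-only arrays. The Rictor-het pair stood above the other 8 arrays (-1.26, SE 0.32, limma adjusted p = 0.9999). Maf, a transcription factor of macrophages among other cells, was at 90.1, 45.8, 46.3, 49.6 and 114.6 against 199.7 and 170.8 (-1.43, SE 0.40). Fcgr4, an Fc receptor, differed by -1.14, Pycard, the inflammasome adaptor, by -1.43, and C3ar1, a complement receptor, by -1.02, each without overlap. H2-Aa, an MHC class II chain, was at 1615.8, 1008.8, 548.9, 599.6 and 65.9 against 2170 and 484.3, so C6 was the lowest and the groups overlapped.

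Among neuronal and stress genes, Slc17a6, a vesicular glutamate transporter, was at 127.3, 204.5, 103.6, 161.7 and 221.8 in Rictor-null and 273.6 and 449.8 in Rictor-het arrays (-1.12, SE 0.43), and the p53-only arrays were higher still in part, at 514, 313 and 949.4. Atf4, the transcription factor of the integrated stress response, was at 421.9, 641.9, 460, 694.7 and 577.4 against 1005.3 and 748.1 (-0.65, SE 0.32), without overlap. Tbr1, a forebrain neuron factor, was dim and higher in all Rictor-null arrays, at 43.1, 15.2, 10.3, 12.9 and 21.9 against 9.3 and 3.4 (1.02, SE 0.41).

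The genes around Rictor in the gene order were also read. Fyb and Osmr, the oncostatin M receptor, are the nearest named tested genes on either side of Rictor. Fyb differed by -1.06 and Osmr by -0.88, against -0.74 for Rictor itself. Ptger4 differed by -0.59, Lifr by 0.00 and Egflam by -0.24. In Osmr and Dab2 all Rictor-null arrays lay below both Rictor-het arrays. Dab2, an endocytic adaptor, was at 25, 31.5, 46.6, 55.3 and 33.4 against 80.2 and 69.3 (-0.90, SE 0.37).

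In the remaining lists no gene passed the limma test. The medians were -0.03 for 19 p53 targets, 0.06 for 16 apoptosis regulators, -0.20 for 13 WNT genes, -0.17 for 20 immediate early genes, -0.16 for 14 Polycomb and DNA methylation genes and 0.00 for 23 genes of glycolysis and hypoxia. They were 0.11 for 22 genes of sterol and fatty acid synthesis, -0.49 for 12 oligodendrocyte genes (-1.35 without B4 and 0.56 without B6, so the sign rests on B6), 0.12 for 14 genes of their precursors, -0.29 for 12 endothelial genes and -0.23 for 14 mesenchymal and mural genes. Leaving out 1 Rictor-het array turned the sign for WNT genes (0.11 without B4), for oligodendrocyte precursor genes (-0.46 without B4), for sterol genes (-0.09 without B4) and for p53 targets (0.10 without B6). Mbp, myelin basic protein, was at 2238.1 in C6 and 2717.5 in B6 and at most 893.4 in the other 8 medulloblastomas, the same pair of arrays that were high in Purkinje cell genes.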
